A study of Mus musculus with 12 samples.

Results

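Lysosomes are the acidic compartments in which cells break down lipids, sugars, proteins and nucleic acids. Most of their soluble enzymes are glycoproteins that receive a mannose 6-phosphate tag in the Golgi and are carried to the lysosome by receptors for that tag, while heavily glycosylated membrane proteins line the inside of the organelle and transporters and channels move the products out. In osteoclasts, the cells that resorb bone, lysosomes fuse with the plasma membrane facing bone, and their enzymes are secreted onto the bone surface. The genes described here are 40 lysosomal hydrolases, activators, membrane proteins and sorting receptors, taken by name from a table of 23863 genes. Cathepsins and proton pump subunits were left out of this selection, which was made by name with earlier results of these data known. All 40 were found and all 40 passed the filter on low counts.

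The measurements are RNA-seq counts of sorted CD45R- CD3- CD11b-/lo CD115+ bone marrow cells of mice, a population of osteoclast precursors. All mice were RUNX1fl/+, with 1 floxed allele of the blood cell transcription factor gene Runx1; the titles also carry the tag WT, and no Cre driver and no age is named. There were 4 groups of 3 libraries, namely female and male cells given M-CSF, a growth factor of macrophages, and female and male cells that also received RANKL at 30 ng/ml. RANKL is the cytokine that drives osteoclast formation. By the titles the cultures lasted 3 days; the growth protocol states a different length. Whether replicates are separate mice is not labelled, and p-values then measure only the spread between libraries, which may be technical.

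The libraries held 10646697 to 15983769 counts. All 9 osteoclast markers rose with RANKL, and their summed level went from 71.2 to 79.4 CPM (counts scaled to the same library total, for marker sums without TMM factors; all other CPM below are scaled by TMM) in M-CSF to 25600 to 32700 CPM. Of 11 macrophage and monocyte markers 9 fell, with a sum of 5610 to 6490 CPM in M-CSF and 1660 to 2110 CPM with RANKL, whereas Csf1r, which encodes CD115, and Ly6c2 were not called. The 10 neutrophil markers were not called, at 57.9 to 310 CPM in M-CSF and 58.4 to 325 CPM with RANKL. They tended higher in females, with a median female minus male log2 difference of 1.49 in M-CSF and 1.34 with RANKL. Between the sexes 0 of these 10 were called. The sums of the B cell, T and NK cell, erythroid, megakaryocyte, dendritic, stromal, endothelial and mast cell markers stayed at or below 21 CPM in every library. Osteoclast and macrophage markers moved with every RANKL result below, and their part in those results was not tested. In bulk RNA, fewer cells of a type and less RNA per cell cannot be told apart.

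The promoters of some of these genes carry the E-box CACGTG, which the MITF and TFE transcription factors can bind, or its longer palindrome TCACGTGA, the centre of the CLEAR element known from lysosomal genes. The upstream windows of 4 genes are shown because they hold the motif in genes that moved in opposite directions, or lack it in a gene with a large rise. Each gives the 250 bases before a RefSeq start, 5′ to 3′ on the gene's strand (RefSeq, GRCm38.p6), with the motif in capitals. Igf2r (chr17:12769707-12769956, minus strand) has 2 copies of TCACGTGA, Lamp1 (chr8:13158911-13159160, plus strand) has 4 copies of CACGTG, and Lgmn (chr12:102439093-102439342, minus strand, before the second of its RefSeq starts) has 1. The window before the first Lgmn start (chr12:102439729-102439978), not shown, holds neither motif, so Lgmn carries CACGTG at only 1 of its starts. Smpd1 (chr7:105554110-105554359, plus strand) has none in this window.
Igf2r: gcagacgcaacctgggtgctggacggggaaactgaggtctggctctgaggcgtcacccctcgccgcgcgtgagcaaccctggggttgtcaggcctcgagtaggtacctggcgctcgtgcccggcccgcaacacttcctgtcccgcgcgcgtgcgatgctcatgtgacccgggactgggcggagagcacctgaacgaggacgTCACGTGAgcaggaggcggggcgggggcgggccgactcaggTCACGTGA
Lamp1: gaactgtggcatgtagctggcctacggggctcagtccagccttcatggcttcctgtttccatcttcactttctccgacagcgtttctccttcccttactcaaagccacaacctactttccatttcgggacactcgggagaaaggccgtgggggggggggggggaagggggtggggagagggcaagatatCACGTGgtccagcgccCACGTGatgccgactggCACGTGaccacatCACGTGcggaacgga
Lgmn: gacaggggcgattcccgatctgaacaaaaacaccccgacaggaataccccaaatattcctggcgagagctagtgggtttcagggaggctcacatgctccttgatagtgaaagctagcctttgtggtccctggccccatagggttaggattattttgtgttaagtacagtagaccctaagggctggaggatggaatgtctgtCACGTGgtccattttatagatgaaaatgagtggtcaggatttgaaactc
Smpd1: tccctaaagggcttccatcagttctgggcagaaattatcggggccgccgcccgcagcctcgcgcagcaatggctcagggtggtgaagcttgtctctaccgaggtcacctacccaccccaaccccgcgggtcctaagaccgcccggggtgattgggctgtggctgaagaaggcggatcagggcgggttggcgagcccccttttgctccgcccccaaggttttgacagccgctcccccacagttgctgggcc
In M-CSF+RANKL against M-CSF, as described below, Igf2r and Smpd1 were higher and Lamp1 and Lgmn were lower.

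Promoter windows of 250 bases before to 50 bases after the start were matched for 36 of the 40 genes. Both motifs read the same on either strand, CACGTG lies within TCACGTGA, and a gene with several starts counts once if any window holds the motif. CACGTG was found in 10 of the 36 (27.8%), against 11.8% of the 9786 tested genes with a window and 8.09% of all 27025 genes in the promoter table. TCACGTGA was found in 3 of the 36 (8.33%), namely Igf2r, the calcium channel gene Mcoln1 and the Batten disease gene Cln3, against 2.24% and 1.12% of the same backgrounds. CACGTG was present in 6 of the 17 genes that rose with RANKL, in 2 of the 12 that fell and in 2 of the 7 that were not called. A match is a description of letters in the window and not a measured binding site.

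With RANKL, averaged over the sexes, 18 of the 40 genes rose, 14 fell and 8 were not called (quasi-likelihood test in edgeR; called where the Benjamini-Hochberg adjusted p was below 0.05 over 13236 genes). The same rule called 33.4% of all tested genes higher and 31.3% lower, while the 18 and the 14 were 45% and 35% of the 40. The second of these is near the background, and whether the first differs from it was not tested. Below, levels are given with SDs and log2 fold changes with standard errors (SE). The median log2 fold change of the 40 was 0.10, against 0.02 over all genes. At 2-fold or more, 7 rose and 7 fell, against 15% and 13.1% of all genes. In 15 genes the 6 RANKL libraries all lay above the 6 M-CSF libraries, in 13 they all lay below, and in 12 the treatments overlapped; 24.3% and 22.7% of all genes were so separated upward and downward. The list therefore held both directions at once, as did the tested genes as a whole. It ran from the tartrate-resistant acid phosphatase Acp5 at 2277-fold higher to the asparaginyl endopeptidase Lgmn at 9.51-fold lower.

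**Figure D1:**
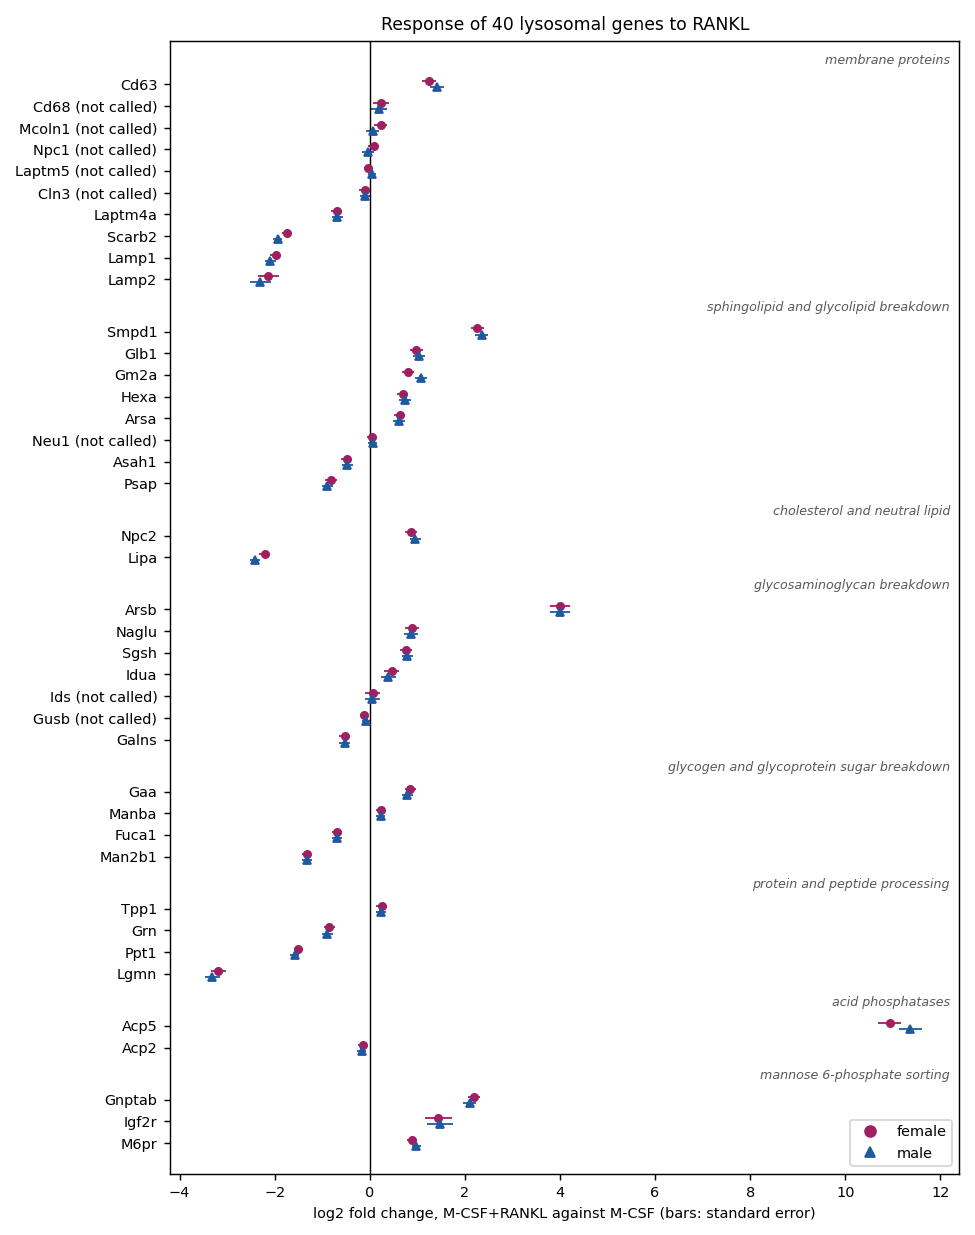
Log2 fold change of each of the 40 genes with RANKL, in females (circles) and males (triangles), with standard errors, grouped by role and ordered within a role by the mean of the sexes; genes marked as not called did not pass the test on that mean. Each role except the mannose 6-phosphate sorting genes holds points on both sides of 0, and the female and male points of a gene lie close together.

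Among 10 membrane proteins 1 rose, 4 fell and 5 were not called. The 2 lysosome-associated membrane glycoproteins, LAMP1 and LAMP2, make up much of the coat inside the lysosomal membrane, and both of their genes fell. Lamp1 (ENSMUSG00000031447, chr8:13159161-13175338, plus strand, GRCm38) was at 1359, 1230.2 and 1439.6 CPM in the female M-CSF libraries and at 1346, 1374 and 1252 in the male ones, against 309, 315 and 396 in female and 305, 328 and 302 in male libraries with RANKL. The treatments did not overlap, and the log2 fold change was -2.03 ± 0.08 (SE; adjusted p = 8.48e-11), a 4.10-fold lower level.

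Lamp2 (ENSMUSG00000016534, chrX:38401357-38456454, minus strand) stood at 552, 373 and 524 CPM in female M-CSF and 466, 548 and 509.8 CPM in male M-CSF. With RANKL it was at 127, 70.7 and 132 CPM in females and 90.0, 119 and 99.6 CPM in males. Its level was 4.66-fold lower with RANKL, with a log2 fold change of -2.22 ± 0.15 (SE; adjusted p = 1.97e-08), and again no RANKL library reached the lowest M-CSF library, although female replicate 2 was the lowest of its group under both treatments. Scarb2 (ENSMUSG00000029426, chr5:92441314-92506833, minus strand) encodes LIMP-2, the receptor that carries glucocerebrosidase to the lysosome. The M-CSF libraries gave 113, 107 and 112 CPM in females and 109, 110.3 and 114 in males, a narrow range, and the RANKL libraries 33.6, 29.0 and 35.9 in females and 29.3, 30.0 and 27.4 in males. The groups did not overlap, and Scarb2 fell by 3.60-fold (log2 fold change -1.85 ± 0.07, SE; adjusted p = 5.03e-11). The fourth, Laptm4a, a small membrane protein of late endosomes and lysosomes, went from 214 ± 17.2 to 133 ± 10.4 CPM (mean ± SD, n = 6 a treatment), a log2 fold change of -0.69 ± 0.08.

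The only membrane gene of the 10 that rose was Cd63, a tetraspanin of late endosomes, lysosomes and secreted vesicles. It went from 199.8 ± 28.3 to 501 ± 51.4 CPM (mean ± SD, n = 6), with a log2 fold change of 1.33 ± 0.10 (SE; adjusted p = 7.23e-08). Lamp1, Lamp2 and Cd63 all encode proteins used as markers of late endosomes and lysosomes, and the first pair fell while Cd63 rose. Laptm5 (ENSMUSG00000028581, chr4:130913125-130936141, plus strand), a lysosomal protein of blood cells, was among the members nearest to 0. Its levels were 975, 997 and 1028 CPM in female M-CSF and 971, 1024 and 1005 in male M-CSF. With RANKL they were 970.2, 962 and 991 in females and 1016, 1001 and 1091 in males, so that the treatments overlapped. The 95% confidence interval of its log2 fold change was -0.12 to 0.13. Npc1 (ENSMUSG00000024413, chr18:12189692-12236400, minus strand), which exports cholesterol across the lysosomal membrane, was at 171, 176 and 169 CPM in female M-CSF, 189.7, 221 and 204 in male M-CSF, 198, 163 and 183 in female M-CSF+RANKL and 176, 184 and 238 in male M-CSF+RANKL. These libraries overlapped between treatments as well, with an interval of -0.16 to 0.20.

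The other 3 membrane genes that were not called were the macrophage sialomucin Cd68, the calcium channel gene Mcoln1 and Cln3, with log2 fold changes of 0.21, 0.15 and -0.10. Cd68 was called when the replicate number was added to the model as a block, with a log2 fold change of 0.21 and an adjusted p of 0.0228. The exons of Cln3 overlap those of Apobr on the other strand over 442 bases, and Apobr had 28429 counts against 13386 for Cln3. Npc1 likewise shares 511 exon bases with Rmc1. The libraries were stranded, but no source used here gives the strand setting of the counting. Whether reads of such pairs were told apart is therefore not known.

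**Figure D2:**
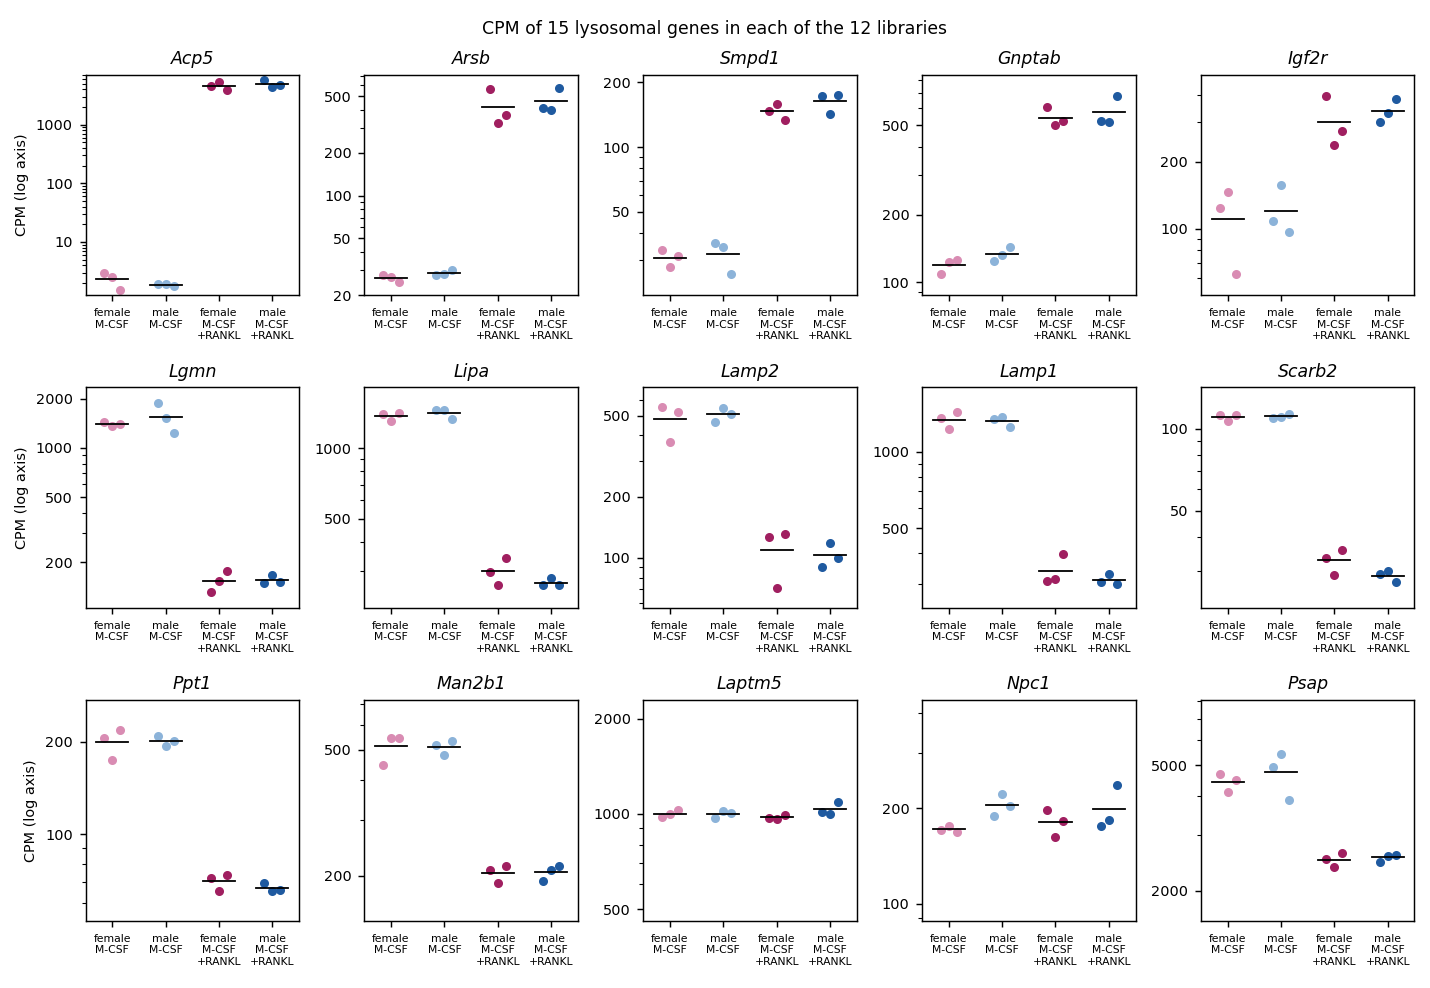
CPM on a log axis in each of the 12 libraries for the 15 genes given library by library; each point is 1 library and each bar the mean of 3, and every panel spans its own range. The 5 genes with the largest rises and the 7 with the largest falls show no overlap between M-CSF and M-CSF+RANKL, nor does Psap, while Laptm5 and Npc1 overlap.

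Of 8 genes that act on sphingolipids and glycolipids, 5 rose, 2 fell and 1 was not called. Smpd1 (ENSMUSG00000037049, chr7:105554360-105558389, plus strand) encodes acid sphingomyelinase, which splits sphingomyelin into ceramide and phosphocholine. In M-CSF it was at 33.3, 27.6 and 31.2 CPM in females and 36.0, 34.5 and 25.6 in males, and with RANKL at 147, 159 and 134 in females and 174, 143 and 174 in males. The lowest RANKL library lay above the highest M-CSF library, and the gene rose 4.94-fold (log2 fold change 2.31 ± 0.10, SE; adjusted p = 1.85e-10). Asah1, acid ceramidase, which breaks down the ceramide that Smpd1 releases, fell from 412 ± 39.5 to 296 ± 24.7 CPM (mean ± SD, n = 6), a log2 fold change of -0.48 ± 0.08.

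The other rises in this group were those of Glb1, Hexa, Gm2a and Arsa. Glb1, the beta-galactosidase, went from 107 ± 7.77 to 216 ± 27.5 CPM (mean ± SD, n = 6; log2 fold change 1.01 ± 0.09). Hexa, the alpha subunit of beta-hexosaminidase, went from 639.9 ± 66.4 to 1052 ± 77.4 CPM (0.72 ± 0.08), and Gm2a, the activator that lifts GM2 ganglioside out of the membrane for it, from 178 ± 24.9 to 342 ± 37.7 CPM (0.94 ± 0.09). Arsa, which removes sulfate from sulfatide, had a log2 fold change of 0.62 ± 0.09. The sialidase gene Neu1, at 121 ± 4.35 CPM in M-CSF and 126 ± 11.2 CPM with RANKL, was not called. Glb1 shares 165 exon bases on the same strand with Tmppe, and exons of Hexa and Arsa overlap genes on the other strand that had far fewer counts (216 for Tmem202 and 200 for C230037L18Rik).

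Psap (ENSMUSG00000004207, chr10:60277627-60302597, plus strand), the precursor of the saposins that present lipids to several of these enzymes, had the highest per-length level of the 40 in M-CSF. It was at 4686, 4121 and 4493 CPM in female M-CSF and 4933, 5416 and 3868 in male M-CSF, and at 2528, 2376 and 2627 in females and 2466, 2584 and 2598 in males with RANKL. Male M-CSF replicate 3 was the lowest of the M-CSF libraries and still above every RANKL library, and the log2 fold change was -0.86 ± 0.08 (SE; adjusted p = 7.77e-07). The activators Psap and Gm2a thus moved in opposite directions.

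Lipa and Npc2 handle cholesterol that reaches the lysosome. Lipa (ENSMUSG00000024781, chr19:34492318-34527474, minus strand), lysosomal acid lipase, releases cholesterol and fatty acids from lipoprotein lipids. Its M-CSF libraries were at 1409, 1306 and 1418 CPM in females and 1460.0, 1460.0 and 1339 in males, and its RANKL libraries at 296, 260.2 and 340.2 in females and 259.5, 280.4 and 259.9 in males. No library overlapped, and Lipa was 4.96-fold lower with RANKL (log2 fold change -2.31 ± 0.08, SE; adjusted p = 2.20e-11). Npc2, which hands free cholesterol to NPC1, rose from 683 ± 54.5 to 1289 ± 118 CPM (mean ± SD, n = 6; log2 fold change 0.91 ± 0.08), while Npc1 itself was not called.

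Of 7 genes that break down glycosaminoglycans, the sugar chains of proteoglycans, 4 rose, 1 fell and 2 were not called. Arsb (ENSMUSG00000042082, chr13:93771630-93943016, plus strand) encodes arylsulfatase B, which removes sulfate from dermatan sulfate and chondroitin sulfate. It stood at 27.6, 26.8 and 24.9 CPM in female M-CSF and 27.5, 28.2 and 30.2 CPM in male M-CSF, against 563, 326 and 371 in females and 411, 402 and 569 in males with RANKL. The RANKL libraries were all far above the M-CSF libraries, and the log2 fold change was 4.0 ± 0.15 (SE; adjusted p = 4.13e-11), a 16.0-fold rise and the second largest of the 40. Its exons overlap the antisense gene Gm26527 over 1948 bases, or 32.3% of their length, and that gene was not analysed here.

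The 3 other rises were in enzymes of heparan sulfate and dermatan sulfate breakdown. Naglu went from 61.0 ± 11.0 to 113 ± 12.7 CPM (0.88 ± 0.11 on the log2 scale), Sgsh from 24.7 ± 2.73 to 42.2 ± 6.72 CPM (0.77 ± 0.09) and the iduronidase gene Idua from 33.2 ± 6.30 to 44.5 ± 3.46 CPM (0.42 ± 0.11; mean ± SD, n = 6 for each level). Sgsh shares 955 exon bases, 21.6% of its length, with Card14 on the other strand, which itself rose by 8.20 on the log2 scale and had 2245 counts against 5652 for Sgsh, so the Sgsh values are uncertain. Idua shares 124 exon bases with Dgkq on the other strand, which had 2454 counts against 6476 for Idua and a log2 fold change of 0.62. It shares 141 more with Slc26a1, which had 63 counts. Galns, which acts on keratan sulfate and chondroitin sulfate, fell from 79.1 ± 8.10 to 55.0 ± 4.11 CPM (-0.53 ± 0.08). Ids and Gusb, iduronate sulfatase and beta-glucuronidase, were not called, at log2 fold changes of 0.06 ± 0.11 and -0.10 ± 0.06. The sulfatases of the list therefore ranged from Arsb, Sgsh and Arsa, which rose, through Ids, which was not called, to Galns, which fell.

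Among 4 enzymes of glycogen and glycoprotein sugars, 2 rose and 2 fell. Man2b1 (ENSMUSG00000005142, chr8:85083270-85098282, plus strand), lysosomal alpha-mannosidase, was at 449, 544 and 545 CPM in female M-CSF and 519, 482 and 532 in male M-CSF, and at 209, 189 and 215 in females and 193, 208 and 215 in males with RANKL. The treatments were fully separate, with a log2 fold change of -1.32 ± 0.07 (SE; adjusted p = 1.81e-09), a 2.50-fold lower level. Fuca1, the alpha-fucosidase, fell by a smaller amount (-0.69 ± 0.07). Gaa, the alpha-glucosidase that breaks down glycogen, rose from 98.4 ± 11.4 to 174 ± 20.4 CPM (mean ± SD, n = 6; log2 fold change 0.82 ± 0.08), and Manba, beta-mannosidase, rose by 0.23 on the log2 scale (adjusted p = 0.00724).

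The 4 genes of protein and peptide processing gave 1 rise and 3 falls. Lgmn (ENSMUSG00000021190, chr12:102394084-102439813, minus strand) encodes legumain, an asparaginyl endopeptidase that also matures other lysosomal proteases. It was at 1444, 1361 and 1389.5 CPM in female M-CSF and 1874, 1523 and 1225 in male M-CSF. With RANKL it was at 131, 153 and 176 CPM in females and 149, 168 and 150.0 in males. Its log2 fold change of -3.25 ± 0.11 (SE; adjusted p = 2.65e-11) was the largest fall of the 40 and the 196th largest fall of the 13236 tested genes, with the lowest M-CSF library far above the highest RANKL library.

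Ppt1 (ENSMUSG00000028657, chr4:122836242-122859175, plus strand), which removes palmitate from proteins, was at 205, 175 and 218 CPM in female M-CSF and 208, 193 and 201 in male M-CSF, against 72.2, 65.4 and 73.6 in females and 69.6, 65.7 and 66.2 in males with RANKL. The groups did not overlap, and the level was 2.91-fold lower (log2 fold change -1.54 ± 0.07, SE; adjusted p = 2.85e-10). Its exons share 129 bases with Cap1 on the other strand, a gene with 196424 counts against 20897 for Ppt1 and with a log2 fold change of -0.97. Grn, the precursor of the granulins, fell from 2097 ± 221 to 1147 ± 54.8 CPM (mean ± SD, n = 6; log2 fold change -0.87 ± 0.08). Tpp1, a tripeptidyl peptidase, rose by 0.25 on the log2 scale (adjusted p = 0.0104).

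The acid phosphatases moved very differently. Acp5 (ENSMUSG00000001348, chr9:22126727-22135711, minus strand), tartrate-resistant acid phosphatase (TRAP), is the enzyme whose stain is used to count osteoclasts. It was at 3.00, 2.52 and 1.54 CPM in female M-CSF and 1.95, 1.92 and 1.74 in male M-CSF, and at 4512, 5397 and 3949 in females and 5753, 4423 and 4737 in males with RANKL. The treatments were separated by more than any other of the 40, with a log2 fold change of 11.15 ± 0.17 (SE; adjusted p = 4.01e-14) and a 2277-fold higher level, the 15th largest rise of the 13236 tested genes. Acp2, the lysosomal acid phosphatase found in most cells, was at 105 ± 4.69 CPM in M-CSF and 94.4 ± 3.92 with RANKL (mean ± SD, n = 6), with a log2 fold change of -0.16 ± 0.06 and an adjusted p of 0.0329 that rose to 0.0585 to 0.0842 in 9 of the alternatives tried.

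All 3 genes of mannose 6-phosphate sorting rose. Gnptab (ENSMUSG00000035311, chr10:88379132-88447329, plus strand) encodes the catalytic part of the enzyme that begins the mannose 6-phosphate tag. It was at 109, 123 and 125 CPM in female M-CSF and 124, 133 and 144 in male M-CSF, against 604, 501 and 521 in females and 520.3, 519.8 and 674 in males with RANKL. No library overlapped, and the gene rose 4.41-fold (log2 fold change 2.14 ± 0.09, SE; adjusted p = 1.32e-10).

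Igf2r (ENSMUSG00000023830, chr17:12682406-12769664, minus strand), the large mannose 6-phosphate receptor, was at 124, 146 and 63.0 CPM in female M-CSF and 109, 157 and 96.7 in male M-CSF, and at 393, 237 and 274 in females and 302, 330.0 and 380.2 in males with RANKL. Female M-CSF replicate 3 was well below the other M-CSF libraries, and even the highest M-CSF library, male replicate 2, was below every RANKL library. The log2 fold change was 1.46 ± 0.20 (SE; adjusted p = 1.55e-05), with the largest standard error of the 40. M6pr, the small receptor that depends on cations, went from 488 ± 38.3 to 933 ± 51.3 CPM (mean ± SD, n = 6; 0.93 ± 0.07).

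**Figure D3:**
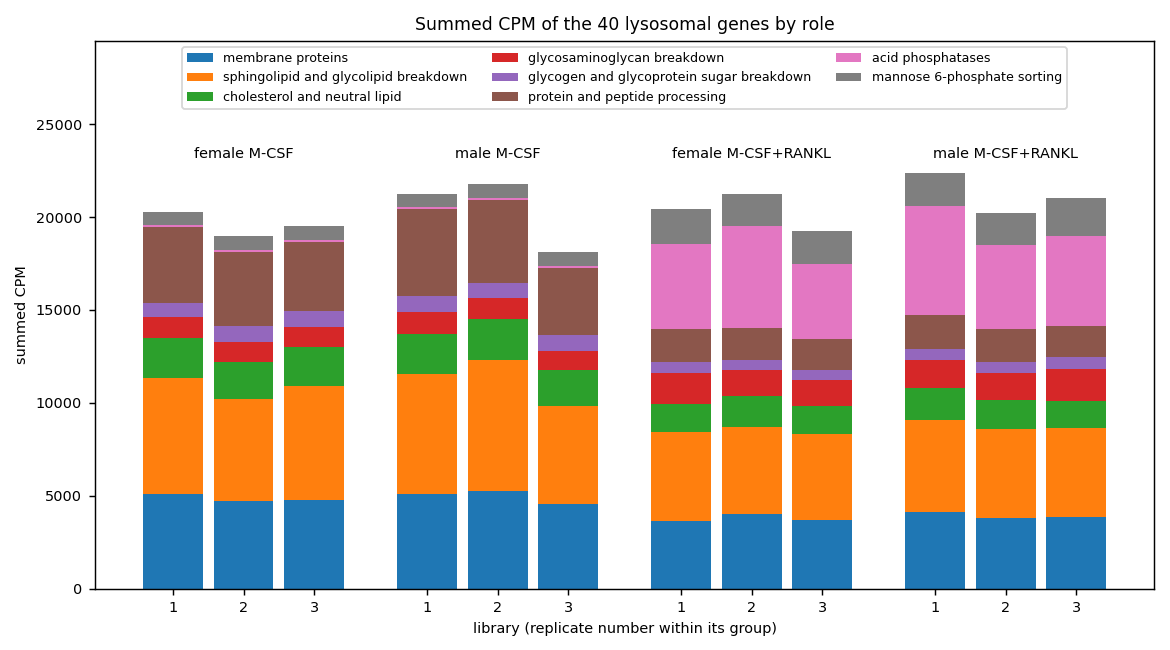
Summed CPM of the 40 genes in each library, stacked by role; the axis starts at 0. The total stays within 18103 to 22361 CPM in all 12 libraries, while the acid phosphatase segment, nearly all Acp5, goes from a sliver in M-CSF to 23.6% of the members' sum with RANKL.

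The 40 genes together held much the same share of a library's counts under both treatments. It was 2.004 ± 0.131% in M-CSF and 2.064 ± 0.0819% with RANKL (SD, n = 6 each), and without Acp5 2.003 ± 0.131% and 1.587 ± 0.0315%. As TMM-scaled sums, the 40 genes were at 19984 ± 1391 CPM in M-CSF and 20747 ± 1057 CPM with RANKL. The difference of mean log2 sums was 0.06, beside a pooled SD of 0.09 between single libraries within groups, and was not tested. The other 39 genes without Acp5 went from 19982 ± 1391 to 15952 ± 450.2 CPM, a difference of -0.32 against a pooled SD of 0.08. A sum weighs abundant genes most, so this is not a fall of most genes. Psap went from 4586 to 2530 CPM, Grn from 2097 to 1147 and Lgmn from 1469 to 154. Lipa went from 1399 to 283 CPM and Lamp1 from 1333 to 326. By count, 18 of the 40 rose and 14 fell, as given above. Protein and peptide processing genes went from 20.4 to 8.39% of the members' summed CPM and membrane proteins from 24.5 to 18.5%. Mannose 6-phosphate sorting genes went from 3.66 to 8.72% and glycosaminoglycan enzymes from 5.55 to 7.35%. Without Arsb, the glycosaminoglycan enzymes were at 1082 ± 43.7 CPM in M-CSF and 1084 ± 51.7 CPM with RANKL (SD, n = 6), or 5.42 and 5.22% of the members' sum.

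Levels per length (TPM, counts divided by exon length and scaled to the same total in each library) set the genes beside each other only roughly. The length used is that of all annotated exons of a gene joined, for example 5438 bases for Npc2 and 8026 for Man2b1. It can exceed the length of the transcript that is expressed, which lowers the level of such a gene. The order of the genes below is therefore approximate. In M-CSF the highest were Psap at 5333 ± 649 TPM, Cd68 at 3112 ± 476, Lgmn at 2015 ± 271, Grn at 1928 ± 219 and Lamp1 at 1590.5 ± 81.7 TPM (mean ± SD, n = 6), of which Lgmn and Grn lie within each other's spread. With RANKL they were Acp5 at 7229 ± 746, Cd68 at 3449 ± 295, Psap at 2837 ± 227, Hexa at 1617 ± 96.3 and Grn at 1013 ± 44.8 TPM. Acp5 went from the lowest of the 40 to the highest, and Arsb from place 39 to place 16. Scarb2 went from place 28 to the last, place 40, Lgmn from 3 to 19 and Lipa from 8 to 22.

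**Figure D4:**
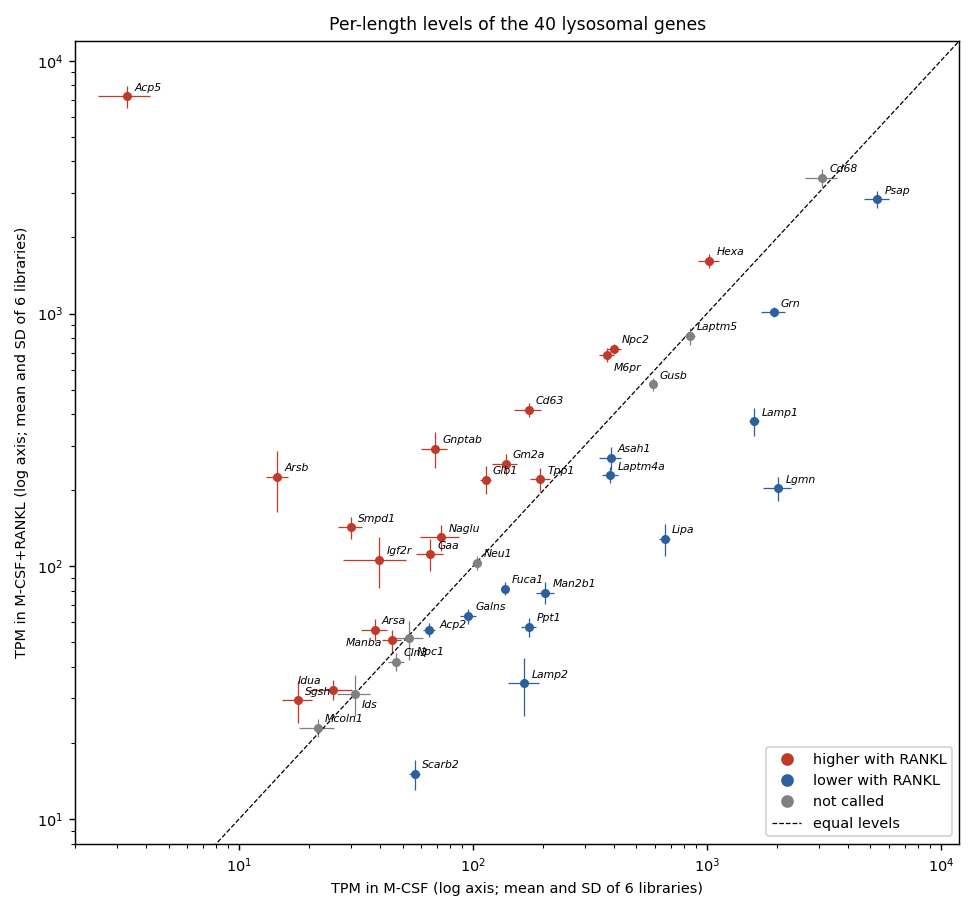
TPM of each of the 40 genes in M-CSF (x axis) and M-CSF+RANKL (y axis), both on log axes, as mean and SD of 6 libraries; red genes were higher with RANKL, blue ones lower and grey ones not called, and the dashed line marks equal levels. Acp5 lies far above the line at 3.32 ± 0.833 and 7229 ± 746 TPM, and Lgmn, Lipa, Lamp1, Lamp2 and Scarb2 lie furthest below it.

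The series title names a comparison of the sexes, and the response was read in females and males apart. In females 16 of the 40 rose and 13 fell, against 26.8% and 25.1% of all genes. In males 16 rose and 13 fell, against 28.4% and 26.6% of all genes. The medians were 0.15 in females and 0.06 in males, against 0.03 and 0.01 over all genes. Idua was called in females (0.46; adjusted p = 0.0273) and missed the threshold in males (0.39; 0.0506), and Manba the reverse (0.23 and 0.0545 in females, 0.23 and 0.049 in males). A model with a replicate block also called Manba and Tpp1 in females (adjusted p 0.0335 and 0.0331) and Idua and Tpp1 in males (0.00692 and 0.0311), all higher with RANKL. The authors' deposited table has 18 of the 40 higher and 13 lower for females, and 17 higher and 13 lower for males.

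The difference of the responses, female minus male, was called for 0 of the 40 and for 0% of all genes, and 0 of the 40 had an unadjusted p below 0.05, against 260 of the 13236. It ranged from -0.44 (95% confidence interval -1.11 to 0.22) for Acp5 to 0.21 (-0.11 to 0.53) for Lipa, on the log2 scale. For 39 of the 40 the interval lay within 2-fold in either direction, the exception being Acp5. DESeq2 and limma also called 0 of the 40.

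Levels were also set side by side between females and males within a treatment. Neutrophil markers tended higher in females under both treatments, as given above, and their part in the comparisons of the sexes was not tested. In M-CSF, 0 of the 40 were called and 0 had an unadjusted p below 0.05, against 0.0453% of all genes called and 478 genes below 0.05 unadjusted. The female minus male log2 difference ranged from -0.25 for Npc1 to 0.34 for Acp5. With RANKL, 0 of the 40 were called against 0.0529% of all genes, with 445 genes below 0.05 unadjusted. Sgsh was the 1 member below 0.05 unadjusted, with a difference of -0.28 on the log2 scale (adjusted p = 1), and Scarb2 was at the other end at 0.18. In both treatments the 95% interval of the sex difference lay within 2-fold for 40 of the 40, and DESeq2 and limma again called 0.

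Other lysosomal genes were read from lists that had been written with earlier results of these data known. Over all tested genes 33.4% rose and 31.3% fell. Of 27 tested hydrolases and cofactors outside the 40, 6 rose (22.2%) and 15 fell (55.6%), with a median log2 fold change of -0.23. That list also holds the channel genes Tpcn1 and Tpcn2. Ifi30, a thiol reductase, rose by 1.94 ± 0.13 (SE) and the hyaluronidase gene Hyal2 by 1.83 ± 0.14, while Hgsnat, which acetylates heparan sulfate ends, had a log2 fold change of -1.33 ± 0.10 and the galactosylceramidase gene Galc of -1.31 ± 0.15. Of 27 membrane proteins and transporters, 13 rose (48.1%) and 10 fell (37%), with a median of 0.16. The tetraspanin gene Tspan8 rose by 3.67 ± 0.29 and Clcn7, the chloride/proton exchanger that bone resorption needs, by 2.53 ± 0.10. The metal ion transporter gene Slc11a1 was at -2.82 ± 0.10 and the peptide and histidine transporter gene Slc15a3 at -2.61 ± 0.17.

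Of 14 further genes that serve the sorting of lysosomal enzymes, 4 rose (28.6%) and 7 fell (50%), with a median of -0.16. Sort1, sortilin, a sorting receptor that does not need the mannose 6-phosphate tag, had a log2 fold change of -2.41 ± 0.16 (SE), and its relative Sorl1 one of -0.63 ± 0.23. The adaptor gene Gga2 was at 0.90 ± 0.08 and the AP-1 subunit gene Ap1b1 at -0.67 ± 0.06. Sort1 fell while the mannose 6-phosphate receptor genes Igf2r and M6pr rose. Among 15 genes of the MITF and TFE factors and their regulators, 5 rose (33.3%) and 6 fell (40%), with a median of 0.04. Rragd, a Rag GTPase gene, rose by 3.88 ± 0.19, Mitf by 1.27 ± 0.13 and Tfec by 1.10 ± 0.08, and Fnip2 was at -0.91 ± 0.13. Rragd was low throughout, at 0.782 ± 0.282 CPM in M-CSF and 11.3 ± 1.97 CPM with RANKL (mean ± SD, n = 6).

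**Figure D5:**
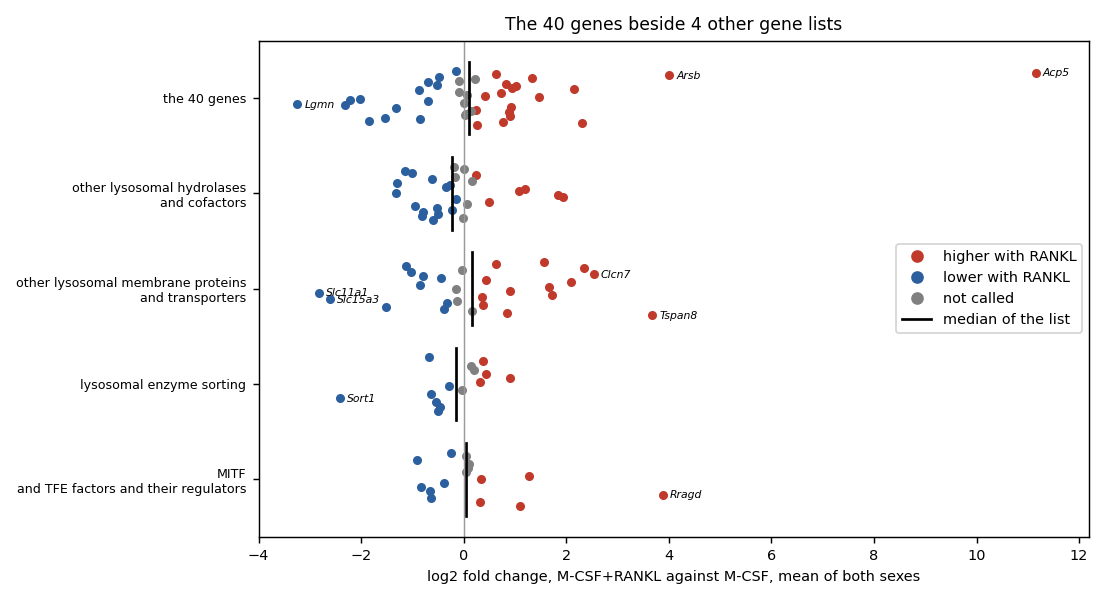
Log2 fold change with RANKL, mean of both sexes, for the 40 genes and for each tested gene of the 4 other lists; red points were higher, blue lower and grey not called, the black line is the median of each list, and genes beyond 2.4 in either direction are named. Each list holds genes on both sides of 0, with medians between -0.23 and 0.16.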

How the data were processed

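RNA from 12 cultures, 4 groups of 3, was made into stranded mRNA libraries, per the labels' protocols. Per the submitters' processing notes, fastp, STAR 2.7.3a and edgeR were used with the build mm10. How reads were counted, with which strand setting and against which annotation is not given in the sources used here, and overlapping genes are uncertain. The authors deposited read counts of 23863 genes, a second table with equal counts for 10255 of them, their log2 CPM, and a table of log2 fold changes with p-values and false discovery rates, quoted here only by name. There were 0 value columns without a sample and 0 rows without a gene name.

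From the full counts, genes kept by filterByExpr (minimum count 10) were scaled by TMM and fitted with edgeR's quasi-likelihood test on all 12 libraries (R 4.3.3, edgeR 4.0.16). Benjamini-Hochberg adjustment ran over all 13236 tested genes, called below 0.05. The comparisons were RANKL in both sexes, in each sex, their difference, and the sexes within each treatment. Exon lengths came from GENCODE vM21, which held 23855 of the 23863 genes, and promoters from RefSeq. Alternatives were DESeq2 1.42.0, its size factors, limma 3.58.1, other filters, a replicate block, only the groups compared, and leaving out each library.

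The 40 genes and all lists were chosen with earlier results of these data known. Values in all libraries are given for the 5 largest rises, the 7 largest falls, the 2 members nearest to 0 and the 2 highest per length, and up to 4 called genes are named per other list. Replicates differed by more than sampling noise (chi-square per degree of freedom 11.2 to 33.7), and each was counted as 1 sample; this does not tell separate cultures from separate preparations of 1 culture. Within a sex, same-numbered libraries of the 2 treatments, numbered in the titles, deviated together (r 0.308 to 0.712). Other numbers gave r of -0.626 to -0.02. Deviations were taken from group means, so these negative values are the counterpart of the positive ones and no separate evidence. The numbers may therefore pair the libraries, but what they stand for is not labelled. The main tests did not use such a pairing, and the replicate block did. Some genes of the other lists are not reported here.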

Additional observations from a re-analysis of the deposited data

How the results depend on the processing

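Across the alternatives, 18 to 19 of the 40 genes were higher with RANKL and 13 to 14 lower in the mean of the sexes, 15 to 18 higher and 13 lower in females, and 15 to 18 higher and 13 lower in males, while 0 were called in the comparisons of the sexes. Leaving out 1 library at a time gave 18 higher and 13 to 14 lower in the mean, 15 to 17 higher in females, 15 to 16 higher in males and 13 lower in each sex. It also gave differences of the members' mean log2 sums between 0.01 and 0.08, and between -0.36 and -0.30 without Acp5 (0.04 and -0.33 without TMM factors). The replicate block changed no call in the 40 beyond those of Cd68, Manba, Tpp1 and Idua given above. Signs turned only in genes near 0 that were not called. In the mean of the sexes leaving out 1 library gave -0.01 to 0.02 for Laptm5 (0 also without the filter on low counts), -0.05 to 0.06 for Npc1 and -0.01 to 0.13 for Ids. In females it gave -0.02 to 0.14 for Neu1 and -0.07 to 0.20 for Ids. In males it gave -0.18 to 0.05 for Npc1, -0.07 to 0.18 for Mcoln1, -0.01 to 0.12 for Neu1 and 0 to 0.15 for Ids. Small changes sat near the threshold: Manba in males lost its call in 14 alternatives (adjusted p 0.0502 to 0.183), 11 of which left out 1 library, namely any but male M-CSF+RANKL replicate 1. Idua in females lost it without M-CSF replicate 2 or 3 or M-CSF+RANKL replicate 1 or 2 (adjusted p 0.0622 to 0.127), Idua in males gained one in 11 alternatives (0.00692 to 0.0494), and Tpp1 gained one in females without female M-CSF+RANKL replicate 3 (0.0261) and in males without female M-CSF+RANKL replicate 1 (0.0495). The cause was not tested. Other scalings, filters and tools moved the median of all genes by at most 0.009 on the log2 scale. Depth limits Acp5 in M-CSF, where 17 to 33 reads per library stand behind the values.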

Other observations

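Some further lysosomal genes outside the 40 are given beside their relatives, chosen after their values were seen, as log2 fold changes with RANKL (± SE). Ostm1, the partner subunit of the chloride exchanger, was at 0.91 ± 0.08 beside 2.53 ± 0.10 for Clcn7. Laptm4b rose by 2.09 ± 0.14 while its relative Laptm4a fell and Laptm5 was not called. Beside the rise of Gnptab, Gnptg was at -0.28 ± 0.10 and Nagpa, not called, at -0.04 ± 0.08. The iron and manganese transporter gene Slc11a2 was at 1.72 ± 0.09, opposite to its relative Slc11a1. Among the transcription factor genes, Tfeb was at 0.32 ± 0.09 and Tfe3 at -0.64 ± 0.06, on either side of 0. Creg1, which encodes a soluble lysosomal glycoprotein, was at -1.01 ± 0.08.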
